A study of Mus musculus with 24 samples.

Results

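RNA carried by vesicles of blood plasma was compared between mice killed 8 days after ligation of the bile duct and mice killed 8 days after a sham operation. The comparison took the 6 libraries labelled ligation and the 6 labelled sham at day 8, which are 12 of the 24 libraries of the series; the other 12 come from day 15 and entered only the alternatives that say so. Every animal was a male of the inbred strain C57BL/6J, and each library came from 1 mouse. No genetic change is listed for either group, no age is stated, and the sham mice differ from the ligated ones only by the operation, as far as the labels say. The tissue label of all samples reads liver, whereas the site label and the protocol describe vesicles of plasma, so the values are vesicle RNA and no liver tissue was measured. Per the protocol, vesicles were precipitated with a polymer reagent, ExoQuick, from 250 µl of plasma taken by cardiac puncture, and 40 ng of RNA went into each stranded library with no poly(A) selection and no removal of ribosomal RNA.

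Bile made by hepatocytes leaves the liver through the bile ducts. When the common duct is tied off, bile acids build up in the liver and blood, hepatocytes are injured, bile duct cells multiply and, over weeks, stellate cells lay down scar matrix; this is a widely used model of obstructive cholestasis. Plasma vesicles of a healthy mouse carry RNA mostly from blood cells: red cell precursors, platelets and leukocytes. Hepatocytes are the source of most plasma proteins, so their transcripts (albumin, hemopexin, fibrinogen chains) mark RNA of liver cells when they appear in plasma. Values are given below as CPM, counts scaled to the size of each library by TMM, a method that sets libraries to the same level over the bulk of genes. A gene is said to have risen or fallen where its adjusted p in edgeR's quasi-likelihood test was under 0.05.

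Total counts ran from 167939 to 937963 in the ligated libraries and from 101733 to 824640 in the sham libraries. Animals numbered 4 to 6 had 535737 or more counts and animals numbered 1 to 3 had 349386 or fewer, in both groups, and this set of numbers was a term in the model; no source used here says what the numbers stand for. The library of ligated animal 3 stood apart: the gene model of Lars2 held 31.6% of its counts against 43.5% to 51.6% in the other 11, and its TMM factor was 0.668 against 0.868 to 1.18. Hemoglobin genes held 7.48% to 15.6% of counts after ligation and 5.49% to 7.93% after sham surgery. Of 14 sets of defining markers, all but those of adipocytes and enterocytes were present in every library, red cells, platelets and neutrophils included. Those of liver macrophages held at most 0.00535% of counts. Hepatocyte markers held 0.0395% to 0.351% of counts after ligation and 0.00336% to 0.0138% after sham surgery.

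Of 3867 genes tested, 199 (5.15%) changed after ligation: 152 (3.93%) rose and 47 (1.22%) fell. The genes that rose included transcripts of hepatocytes, red cell precursors, neutrophils and monocytes, and those that fell included transcripts of B cells, T cells and immune receptor signalling. At least 1 of the 33 gene lists used here holds 56 of the genes that rose and 16 of those that fell. Changes were larger upward: the median log2 fold change was 1.03 for the genes that rose, with values up to 7.82, and -0.83 for those that fell, with none below -1.33. Of the genes that rose, 83 changed more than 2-fold, as did 13 of those that fell. All 6 ligated libraries lay above all 6 sham libraries for 62 genes (1.60% of those tested), of which 56 rose by the test, and below them for 17 genes (0.440%), of which 7 fell. Within animals 1 to 3 and within animals 4 to 6 taken alone, each of the 199 genes kept its sign. The genes were called on these same libraries, so the kept sign is no independent support. The separate fits called 72 higher and 4 lower among 2011 genes tested in animals 1 to 3, and 24 higher and 7 lower among 5719 in animals 4 to 6.

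The balance between higher and lower genes rests on the scaling. TMM put the median log2 fold change of all tested genes at 0.01. When libraries were scaled by their total counts alone, that median moved to -0.26, and the same test called 80 genes higher and 266 lower, so that higher genes made up 23.1% of the calls in place of 76.4%. All 47 genes that fell under TMM fell under this scaling too, and 80 of the 152 that rose were still called higher. The data hold no outside standard for the total of RNA, so a change here is a change relative to the bulk of the genes. For a transcript of a given cell type, fewer or more releasing cells and less or more RNA released per cell cannot be told apart in such bulk samples.

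**Figure D1:**
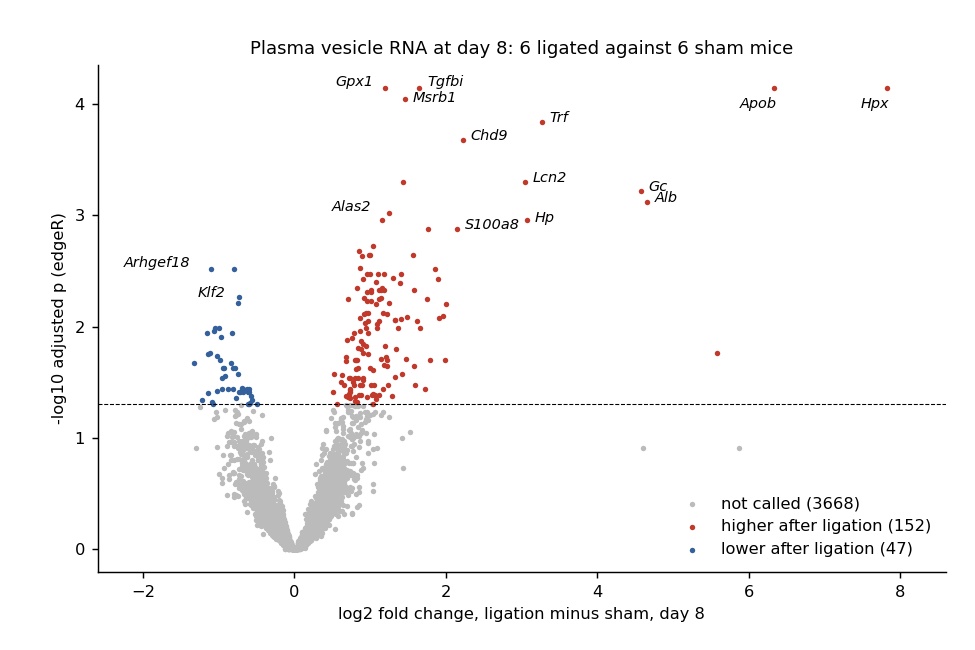
Log2 fold change (ligation minus sham) against -log10 of the adjusted p for the 3867 tested genes, 1 point per gene, with the 152 higher genes in red, the 47 lower genes in blue and the threshold of 0.05 as a dashed line. Hpx, Apob, Alb, Gc and Trf lie far to the right, and no lower gene passes -1.33.

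Hepatocyte transcripts rose, and Hpx and Apob had the largest rises of all tested genes. Hpx encodes hemopexin, which binds free heme in plasma (GRCm38 chromosome 7, 105591613 to 105600137, minus strand). In ligated mice its level ran from 33.0 to 851 CPM with a median of 86.3. In sham mice it was 0 in 5 of 6 libraries and 3.59 CPM in animal 2. The groups did not overlap. Its 335 counts after ligation against 1 after sham surgery give a ratio of 346 with an exact 95% interval of 61.6 to 13700, which covers counting error only.

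Apob, which encodes the structural protein of very-low-density lipoprotein (chromosome 12, 7977648 to 8016835, plus strand), showed the same separation. Ligated mice ranged from 42.2 to 487 CPM with a median of 80.6, and sham mice were at 0 except for 3.74 CPM in animal 6. The 270 counts after ligation against 3 after sham surgery give a ratio of 92.8 (31.4 to 453). Alb encodes albumin, the main protein of plasma (chromosome 5, 90460897 to 90476602, plus strand). It ran from 84.8 to 2023 CPM after ligation (median 213) and from 0 to 34.9 CPM after sham surgery (median 2.33), again without overlap, and rose by 4.66 on the log2 scale (SE 0.70, adjusted p = 0.000757 in edgeR). Gc, the vitamin D binding protein encoded next to Alb on chromosome 5 (89417522 to 89457898, minus strand), ran from 23.5 to 316 CPM against 0 to 7.47 CPM and rose by 4.58 (SE 0.67, adjusted p = 0.000598).

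Both iron and hemoglobin carriers rose from a measurable sham level. Trf encodes transferrin, the plasma iron carrier (chromosome 9, 103204001 to 103230444, minus strand). It ran from 193 to 1723 CPM with a median of 329 after ligation and from 28.4 to 137 CPM with a median of 42.4 after sham surgery, which edgeR put at a log2 fold change of 3.27 (SE 0.42) with an adjusted p of 0.000145. Hp, which encodes the hemoglobin-binding protein haptoglobin (chromosome 8, 109575128 to 109579172, minus strand), ran from 42.8 to 396 CPM against 0 to 21.5 CPM and rose by 3.07 (SE 0.48, adjusted p = 0.00109). Neither gene overlapped between the groups. Cp (ceruloplasmin, a copper carrier) and Selenop (selenoprotein P, a selenium carrier) rose less, by 1.59 and 0.66, and their groups overlapped. With the animal number as a block Selenop lost its call (adjusted p = 0.0613).

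**Figure D2:**
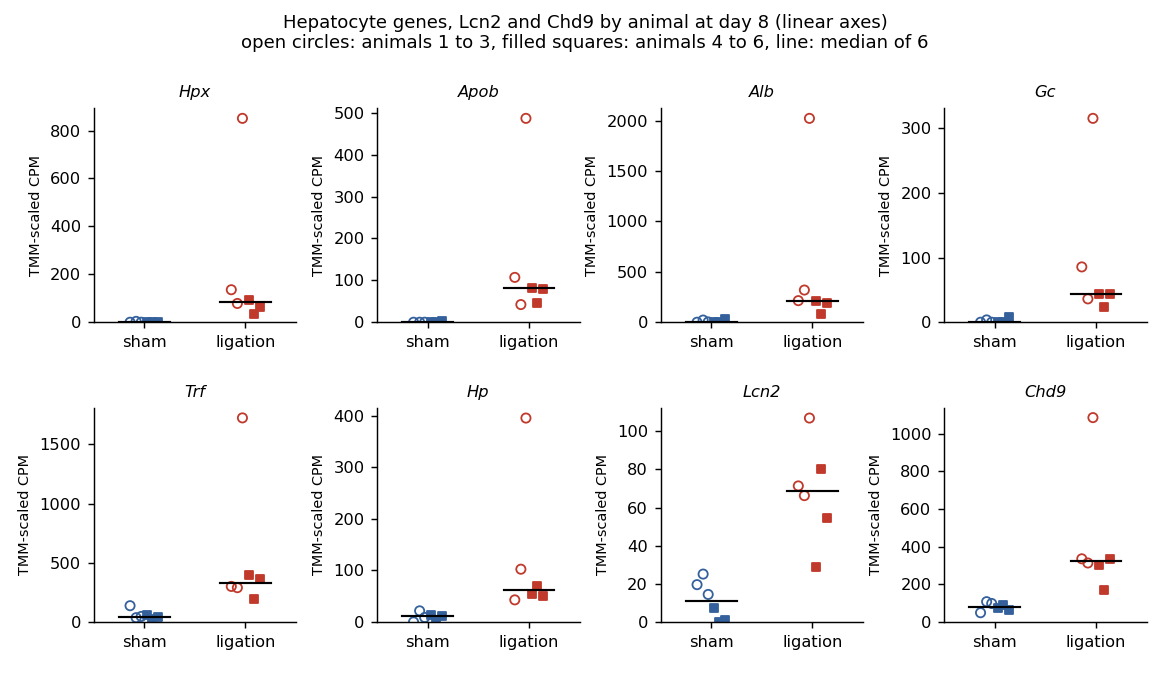
TMM-scaled CPM of 6 hepatocyte genes, Lcn2 and Chd9 in each of the 12 animals on linear axes starting at 0, with open circles for animals 1 to 3, filled squares for animals 4 to 6 and a line at each group's median. The groups do not overlap in any of the 8 panels, and ligated animal 3 is the highest in all of them.

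Ligated animal 3 had the highest level of each of these carriers. Without that library the log2 fold changes were 6.92 for Hpx, 5.73 for Apob, 3.90 for Alb, 3.97 for Gc, 2.70 for Trf and 2.52 for Hp, all still past the threshold. Without any 1 of the 12 libraries, Hpx, Apob, Alb, Gc, Trf and Hp stayed past it, Gc in the 10 fits whose filter kept it. The list of hepatocyte carriers holds 24 genes of the table, of which 7 passed the filter on low counts, and all of these 7 rose, with a median of 3.27 beside 0.01 over all tested genes. Several passed the filter only through the ligated libraries, so this count is no support by itself. Without ligated animal 3, 5 of 7 rose, since Cp and Selenop no longer passed the test. Cp lost its call in 4 of the 6 leave-one-out fits that tested it, and Selenop in 9 of 12.

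As shares of counts, which do not depend on the filter, 2 of the 6 lists of hepatocyte transcripts separated the groups. The 24 carriers held 0.0563% to 0.415% of counts after ligation (median 0.103%) and 0.0177% to 0.0426% after sham surgery (median 0.0221%). The 29 protease inhibitors, which include the serpins and the inter-alpha-trypsin inhibitors, held 0.0216% to 0.103% against 0.00812% to 0.0177%. Neither pair of ranges overlapped. The other 4 lists overlapped between the groups. For apolipoproteins 2 ligated libraries lay above all sham libraries and 1 below, for coagulation genes 2 lay above and for drug metabolism 1. For metabolic genes none did, and sham animal 1 (0.144%) exceeded every ligated library. F5, which platelets also make, held 1761 of the 2503 counts of the coagulation list after ligation and 1067 of 1360 after sham surgery. Its counts split by the number set in both groups (below), so the share of that list does too. The 6 lists together, 190 genes in all, held 0.302% to 0.861% of counts in ligated mice and 0.159% to 0.278% in sham mice, a ratio of mean shares of 2.06. The lowest ligated share (animal 1, 508 counts) had an exact 95% interval of 0.277% to 0.330%, and the highest sham share (animal 1, 283 counts) one of 0.247% to 0.312%, so these 2 libraries cannot be told apart at their depth.

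Most liver genes stayed under the filter and are known only from their counts. The following were named after their counts were seen, for their near absence from sham libraries, and are given as a description. Fgb, a fibrinogen chain needed for clotting, had 80 counts spread over all 6 ligated libraries and 0 in sham mice, which is at least 27.5-fold higher against a floor of 3 counts over the group. Pigr, which moves immunoglobulin A through epithelial cells, had 88 counts against 0, at least 30.3-fold higher. The 2 other fibrinogen chains had 93 against 7 counts (Fga) and 49 against 2 (Fgg). Apoa1, the main protein of high-density lipoprotein, had 76 against 7 counts, with 4 or more in each ligated library.

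Serpina1a and Serpina1b, near-identical copies of the gene for alpha-1-antitrypsin, had 98 against 2 and 83 against 1 counts; no source used here says how reads were shared between such copies, so single members are uncertain. Pzp, a broad protease inhibitor, had 104 against 2 counts, and Itih3 and Ambp, both of the inter-alpha-trypsin inhibitor system, had 39 and 33 against 0. Bhmt, a methyl-transfer enzyme typical of hepatocytes, had 93 against 2 counts, and Hnf4a, a transcription factor of hepatocytes and gut, 29 against 3. The major urinary proteins, pheromone carriers that male mouse liver makes in quantity, were nearly silent: the 21 genes of the table held 49 counts in ligated mice and 2 in sham mice, and Mup20 took 43 of the 49.

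Most metabolic genes of hepatocytes lay below the filter. Of 51 genes for hepatocyte metabolism, 11 passed it and 2 of these rose (18.2%, beside 3.93% of all tested genes). At an unadjusted p under 0.05 in edgeR 5 of the 11 were higher and 0 lower. With no filter on low counts 6 of 48 rose, beside 336 of all 16098 genes tested. Aldh1a1, which oxidises retinaldehyde, ran from 70.6 to 115 CPM against 37.5 to 78.9 CPM and rose by 0.88 (SE 0.20, adjusted p = 0.0136 in edgeR); Acsl1, which activates fatty acids, rose by 1.05 (SE 0.28, adjusted p = 0.0334). Both are also expressed in blood cells, and scaling by total counts ended both calls. Of 49 detoxification genes 5 were tested and 0 were called in edgeR, with 0 at an unadjusted p under 0.05. DESeq2, which kept more genes of low counts, called 4 of 19 higher, beside 262 of all 10456 genes tested. No gene of bile acid synthesis or transport passed the filter. Cyp7a1, the rate-limiting enzyme of bile acid synthesis, had 3 counts after ligation and 5 after sham surgery, and Abcb11, the bile salt export pump of hepatocytes, had 15 against 0, at least 5.16-fold higher. The hepatocyte uptake transporter Slc10a1 had 1 count in all 12 libraries.

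To set sequence beside these values, 250 bases upstream of the start of each gene were taken from RefSeq (GRCm38.p6) and searched on both strands for GTTAAT, a core of the site of hepatocyte nuclear factor 1, and for GATAAG, the core motif of GATA factors. The sequences below are the promoters with a match whose genes had the smallest p among the hepatocyte genes and among the red cell genes that rose; they read 5′ to 3′ toward the gene, with the match in capitals. Alb lies at chr5:90460620-90460869 on the plus strand, Gc at chr5:89457899-89458148 on the minus strand, and the adult beta-globin genes Hbb-bs and Hbb-bt at chr7:103827929-103828178 and chr7:103813924-103814173 on the minus strand.
Alb: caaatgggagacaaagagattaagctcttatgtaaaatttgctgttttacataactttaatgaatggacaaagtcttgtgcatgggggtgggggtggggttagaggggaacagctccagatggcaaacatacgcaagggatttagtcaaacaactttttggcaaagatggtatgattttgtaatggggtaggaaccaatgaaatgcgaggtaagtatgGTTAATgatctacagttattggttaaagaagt
Gc: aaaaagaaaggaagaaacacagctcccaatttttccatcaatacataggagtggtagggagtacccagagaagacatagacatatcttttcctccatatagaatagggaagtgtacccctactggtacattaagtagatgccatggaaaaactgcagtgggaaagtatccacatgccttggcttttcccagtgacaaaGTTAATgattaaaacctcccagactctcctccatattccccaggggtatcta
Hbb-bs: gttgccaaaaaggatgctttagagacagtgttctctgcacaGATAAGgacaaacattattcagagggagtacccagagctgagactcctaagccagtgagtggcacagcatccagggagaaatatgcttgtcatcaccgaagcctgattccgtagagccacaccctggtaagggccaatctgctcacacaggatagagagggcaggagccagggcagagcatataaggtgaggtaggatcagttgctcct
Hbb-bt: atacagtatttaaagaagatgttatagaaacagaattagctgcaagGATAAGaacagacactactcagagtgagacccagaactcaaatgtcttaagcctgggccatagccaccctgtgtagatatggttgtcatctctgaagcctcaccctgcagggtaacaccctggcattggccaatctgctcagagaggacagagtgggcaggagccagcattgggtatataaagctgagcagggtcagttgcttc
Counted from the RefSeq start, GTTAAT begins at -32 in Alb and at -52 in Gc, and GATAAG at -209 in Hbb-bs and at -204 in Hbb-bt. That start is where each sequence ends and can differ from the gene coordinates given above. For Alb the sequence ends at 90460869 and the gene coordinates begin at 90460897. Of the 11 hepatocyte-list genes that rose, 9 had a promoter in the table and 3 (Alb, Gc and Cp) held GTTAAT, beside 7.49% of all 27025 promoters. Of the 25 red cell genes that rose, 16 had a promoter in the table and 7 held GATAAG, beside 7.60% of all. A match describes these letters and is not evidence of a bound factor.

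Of 20 acute phase genes, which liver and leukocytes share in part, Lcn2 alone passed the filter, and it rose. Lcn2 encodes lipocalin 2, an iron-scavenger protein released by neutrophils and by stressed hepatocytes (chromosome 2, 32384633 to 32388252, minus strand). It ran from 28.7 to 107 CPM after ligation with a median of 68.8, and from 0 to 25.1 CPM after sham surgery with a median of 10.8. The groups did not overlap, and the log2 fold change was 3.04 (SE 0.44, adjusted p = 0.000502 in edgeR). Below the filter and so with no test, Saa1, a serum amyloid protein of the acute phase response, had 11 counts against 0, and Orm1, an orosomucoid, 22 against 0, at least 3.78-fold and 7.57-fold higher. The 20 acute phase genes together held 0.0160% to 0.0559% of counts after ligation and 0.00560% to 0.0130% after sham surgery, without overlap.

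Among complement genes, 4 of 29 passed the filter and 2 rose, beside 3.93% of all tested genes. C4b, a component of the classical pathway, ran from 31.4 to 102 CPM against 8.65 to 25.7 CPM, without overlap, and rose by 1.86 (SE 0.33, adjusted p = 0.00302 in edgeR). C3, the protein on which all complement pathways converge, ran from 138 to 1221 CPM against 58.6 to 675 CPM. Its groups overlapped, and its rise of 1.99 (SE 0.49, adjusted p = 0.02) was lost without sham animal 3, 4 or 5 (highest adjusted p 0.0774) and in DESeq2. Below the filter, Cfb, a factor of the alternative pathway, had 70 counts against 7, and C1s1, a protease of the classical pathway, had 104 against 24, of which ligated animal 4 held 62.

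Most of the red cell transcripts tested rose. Of 53 genes for hemoglobin, heme synthesis, the red cell membrane and red cell maturation, 34 passed the filter, 25 rose and 0 fell, with a median log2 fold change of 1.00 over the 34; 3.93% of all tested genes rose. Alas2 encodes the first and rate-limiting enzyme of heme synthesis in red cell precursors (chromosome X, 150547375 to 150570638, plus strand). It ran from 1450 to 2971 CPM after ligation with a median of 1945, and from 672 to 1253 CPM after sham surgery with a median of 754. The groups did not overlap, and the rise was 1.24 (SE 0.19, adjusted p = 0.000955 in edgeR).

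The beta-globin gene Hbb-bs, whose promoter is shown above, ran from 33720 to 76760 CPM against 20220 to 28740 CPM and rose by 1.03 (SE 0.17, adjusted p = 0.00189 in edgeR). The other adult globin genes Hbb-bt, Hba-a1 and Hba-a2 rose by 1.02, 0.86 and 0.78; these pairs are near-identical copies and their separate values are uncertain. Tmcc2, a membrane protein gene of the red cell list, rose by 2.00, the most of that list (SE 0.41, adjusted p = 0.00625), though 1 ligated library fell within the sham range. Membrane and skeleton genes rose too: Slc4a1, the anion exchanger band 3, by 1.41, Epb42 by 1.74 and Ank1 by 1.19. So did Tfrc, the transferrin receptor (1.49), Slc25a37, the mitochondrial iron importer (1.14), and Fech, the last enzyme of heme synthesis (0.97).

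The red cell list was also fitted within each number set. Over animals 1 to 3 the median of the list was 1.27 and 22 of 30 tested members rose, beside 72 of all 2011 genes tested. Over animals 4 to 6 the median was 0.70 and 0 of 39 rose, beside 24 of all 5719 genes tested. The difference between the sets was not tested. As a share of counts the 53 genes held 8.11% to 16.9% after ligation and 6.02% to 8.52% after sham surgery, with 5 of 6 ligated libraries above all sham libraries; ligated animal 3 held the lowest ligated share. Scaling by total counts left 20 of 34 called higher, with a median of 0.74.

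Part of the neutrophil and monocyte genes rose. S100a8, a subunit of the calprotectin complex abundant in neutrophils, ran from 211 to 567 CPM after ligation and from 29.9 to 245 CPM after sham surgery, and rose by 2.15 (SE 0.35, adjusted p = 0.00133 in edgeR). Its groups overlapped, with 3 ligated libraries above all sham libraries. Its partner S100a9 rose by 1.62 and Retnlg, a resistin-like secreted protein of neutrophils, by 1.57 (SE 0.27, adjusted p = 0.00226). Of 37 neutrophil genes 8 were tested and 5 rose, beside 3.93% of all tested genes, with a median of 1.60. Lcn2 is 1 of the 5 and passed the filter only through the ligated libraries, where it was high, so this count is no support by itself. With no filter on low counts 18 of 35 neutrophil genes rose, beside 336 of all 16098 genes tested. Leaving out 1 library gave from 3 of 6 tested members (without ligated animal 5) to 9 of 13 (without ligated animal 3).

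Transcripts made mainly in neutrophil precursors were concentrated in a few animals. Ltf (lactoferrin) had 168 counts after ligation, of which ligated animal 5 held 112 and animal 6 held 30, against 26 after sham surgery. Camp, an antimicrobial peptide, had 103 against 28 counts, and animals 5 and 6 held 43 and 27 of the 103. Ngp, another granule protein, had 332 against 108, with 142 and 106 in the same pair of animals. These genes were named after their counts were seen. Over the list, the median log2 fold change was 0.80 in animals 1 to 3 and 2.07 in animals 4 to 6.

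Of 39 monocyte and macrophage genes 11 were tested and 7 rose, beside 3.93% of all tested genes, with a median of 0.84. With no filter on low counts 6 of 39 rose, beside 336 of all 16098 genes tested, and in DESeq2 6 of 32, beside 262 of 10456. Lgals3 (galectin-3, a lectin of macrophages) ran from 64.2 to 179 CPM against 34.6 to 78.2 CPM and rose by 1.44 (SE 0.21, adjusted p = 0.000502 in edgeR). Ccr2, the chemokine receptor by which inflammatory monocytes leave the marrow, ran from 16.1 to 57.1 CPM against 2.88 to 39.1 CPM and rose by 1.97 (SE 0.41, adjusted p = 0.00798). For each gene 5 ligated libraries lay above all sham libraries, and ligated animal 3 was the lowest ligated one for both. Plac8, found in myeloid cells, rose by 1.02 without overlap (SE 0.20, adjusted p = 0.00584), and Tyrobp, a signalling adaptor of myeloid receptors, by 0.84. Fcgr3, an Fc receptor, rose by 1.02 (adjusted p = 0.0413) and lost its call in all 6 leave-one-out fits that tested it and with the animal number as a block (adjusted p = 0.0969). Scaling by total counts left 3 of 11 called, and leaving out ligated animal 2 or 5 or sham animal 1, 4 or 5 left 4. Kupffer cell markers were too low to test.

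**Figure D3:**
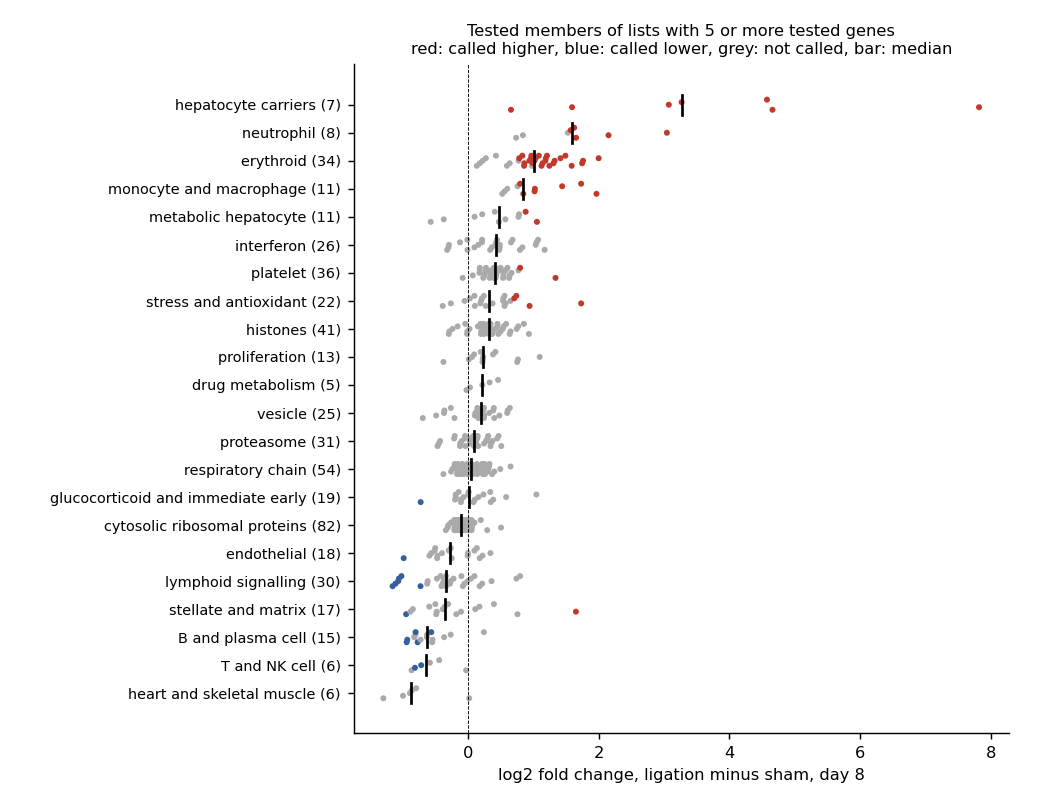
Log2 fold change (ligation minus sham) of each tested gene in the lists with 5 or more tested genes, 1 point per gene and a bar at each list's median, with the number of tested genes in brackets. Hepatocyte carriers, neutrophil and red cell genes lie to the right, and B cell, T cell and heart genes to the left. Of the 6 tested heart and skeletal muscle genes 0 were called in the main edgeR fit.

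Tgfbi encodes a matrix protein induced by transforming growth factor beta and made by monocytes, macrophages and fibroblasts (chromosome 13, 56609523 to 56639562, plus strand). It ran from 112 to 200 CPM after ligation with a median of 136, and from 37.2 to 61.0 CPM after sham surgery with a median of 49.7. The groups did not overlap. The rise of 1.65 (SE 0.20) had an adjusted p of 7.17e-05 in edgeR, was called in animals 1 to 3 and in animals 4 to 6 alone, and held without any 1 library. No collagen gene was called in the fit with all 12 libraries. Col1a1, the main chain of scar collagen, ran from 28.3 to 137 CPM against 88.0 to 277 CPM, a change of -0.85 on the log2 scale (SE 0.32, adjusted p = 0.142). Ligated animal 4 held 100 of its 205 ligated counts. The change passed the threshold without that library (-1.32, adjusted p = 0.00845), with no filter on low counts (-0.91, adjusted p = 0.00104) and when libraries were scaled by total counts (-1.13, adjusted p = 0.0322).

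Of 49 genes of stellate cells and matrix 17 were tested, with a median of -0.36. Of these 1 rose (Tgfbi) and 1 fell (Fbn1), beside 3.93% and 1.22% of all tested genes. Fbn1, which encodes the microfibril protein fibrillin-1, ran from 12.6 to 49.97 CPM against 35.5 to 96.8 CPM and fell by 0.95 (SE 0.25, adjusted p = 0.0289 in edgeR; adjusted p = 0.0618 with the animal number as a block). Under scaling by total counts 6 of the 17 fell, beside 266 of all 3867 genes tested. The matrix list held 0.135% to 0.323% of counts after ligation and 0.237% to 0.398% after sham surgery.

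A pair of selenoprotein genes were among the smallest p-values and were chosen for that after their values were seen. Gpx1, glutathione peroxidase 1, which removes hydrogen peroxide (chromosome 9, 108338903 to 108340343, plus strand), ran from 858 to 1561 CPM against 398 to 598 CPM and rose by 1.19 (SE 0.14, adjusted p = 7.17e-05 in edgeR). Msrb1, which repairs oxidised methionine (chromosome 17, 24736642 to 24742778, plus strand), ran from 78.3 to 111 CPM against 19.6 to 41.4 CPM and rose by 1.46 (SE 0.18, adjusted p = 8.92e-05). Neither overlapped between the groups. Both are abundant in red cell precursors and leukocytes as well as in liver.

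Chd9 encodes a chromatin remodelling helicase (chromosome 8, 90828352 to 91054516, plus strand). It ran from 168 to 1086 CPM after ligation with a median of 324 and from 48.9 to 108 CPM after sham surgery with a median of 80.1, without overlap. The rise was 2.23 (SE 0.30, adjusted p = 0.000211 in edgeR) and 1.84 without ligated animal 3, the highest library. P2rx4, an ATP-gated ion channel, was below the filter and was named after its counts were seen. It had 112 counts after ligation, 8 to 44 per library, and 8 after sham surgery, 0 to 3 per library.

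Of 35 genes of oxidative, endoplasmic reticulum and heat shock stress, 22 were tested and 4 rose, beside 3.93% of all tested genes. With the animal number as a block 2 of the 22 rose, and leaving out 1 library gave 1 to 4. Hspa5, the main chaperone of the endoplasmic reticulum, ran from 43.7 to 102 CPM against 16.0 to 58.7 CPM and rose by 0.94 (SE 0.22, adjusted p = 0.0151 in edgeR). Hmox1, which breaks down heme, rose by 1.73 (SE 0.47, adjusted p = 0.0364), with 5 ligated libraries from 36.9 to 64.3 CPM, ligated animal 1 at 0 and sham libraries from 0 to 35.9 CPM. It lost its call without any 1 of 9 libraries. Txn1, thioredoxin, rose by 0.74 (SE 0.20, adjusted p = 0.0371) and lost its call without any 1 of 10 libraries and with the animal number as a block (adjusted p = 0.0540). Scaling by total counts left none of the 4 called.

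The interferon response was not called. Of 44 interferon-induced genes 26 were tested and 0 passed in either direction in edgeR, with a median of 0.42. At an unadjusted p under 0.05, 8 were higher and 0 lower, DESeq2 called 2 higher, and with the animal number as a block 2 rose. The 44 genes held 0.172% to 0.188% of counts in the sham libraries and 0.105% to 0.334% in the ligated ones, 3 of which lay above and 2 below all sham libraries. The spread among ligated mice was wider than among sham mice (SD 0.0870 against 0.00518, in % of counts, n = 6 each).

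Part of the B cell genes fell. Of 27 genes of B and plasma cells 15 were tested, 5 fell and 0 rose, with a median of -0.63, beside 1.22% of all tested genes that fell. Pax5, the transcription factor that maintains B cell identity, ran from 12.1 to 99.9 CPM after ligation with a median of 81.9, and from 68.2 to 196 CPM after sham surgery with a median of 132. It fell by 0.94 (SE 0.24, adjusted p = 0.0235 in edgeR). Spib, another B cell transcription factor, ran from 28.6 to 102 CPM against 50.2 to 179 CPM and fell by 0.93 (SE 0.23, adjusted p = 0.0235). Both overlapped between the groups. Ralgps2 fell by 0.80 (adjusted p = 0.0235, and 0.0613 with the animal number as a block), Bank1, a B cell receptor scaffold, by 0.77, and H2-Aa, a class II antigen-presenting chain, by 0.56. H2-Aa lost its call with the block (adjusted p = 0.103) and without any 1 of 10 libraries, and Bank1 without any 1 of 9.

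As shares of counts, both lymphocyte lists separated the groups. The 27 B cell genes held 0.0605% to 0.123% of counts in ligated mice and 0.127% to 0.241% in sham mice. The 32 genes of T and NK cells held 0.0358% to 0.0576% against 0.0644% to 0.0917%. Neither pair of ranges overlapped. Shares rest on total counts and not on TMM, and this separation was not particular to lymphocyte genes. All 6 ligated libraries also lay below all sham libraries for glucocorticoid and immediate early genes and for ribosomal protein genes. Of 6 tested T cell genes 2 fell, beside 1.22% of all tested genes. These were Tcf7, a transcription factor of resting T cells, by 0.81 (SE 0.22, adjusted p = 0.0364 in edgeR) and Ikzf3, a lymphoid zinc finger factor, by 0.72 (SE 0.20, adjusted p = 0.0384). With the animal number as a block their adjusted p-values were 0.0878 and 0.0630, and the counts of falling genes dropped to 3 of 15 B cell and 0 of 6 T cell genes. Under scaling by total counts they were 11 of 15 and 4 of 6, beside 266 of all 3867 genes tested. Leaving out 1 library at a time gave 1 to 7 falling B cell genes (1 without sham animal 3, 4 or 5) and 0 to 3 falling T cell genes (0 without ligated animal 2 or 4 or sham animal 3, 4 or 5).

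**Figure D4:**
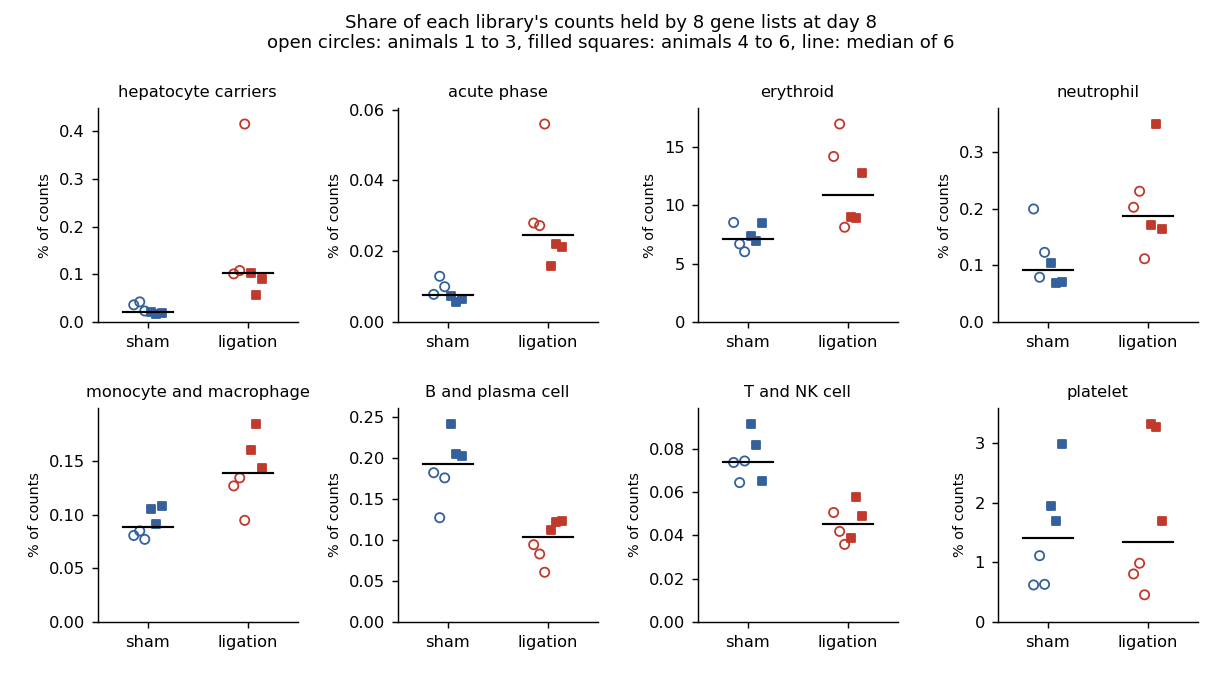
Percent of each library's counts held by 8 gene lists, with open circles for animals 1 to 3, filled squares for animals 4 to 6 and a line at each group's median; all axes start at 0. Ligated and sham libraries do not overlap for hepatocyte carriers and acute phase genes (ligation higher) or for B cell and T cell genes (ligation lower), while platelet genes vary with the number set.

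Some signalling genes of immune cells fell as well. Of 32 genes in that list 30 were tested, 6 fell and 0 rose, beside 1.22% of all tested genes that fell. The median was -0.34, with 7 members above 0. The list was drawn up with earlier results of these data in view, so the count of 6 is no support by itself. Leaving out 1 library gave 3 (without sham animal 4 or 5) to 5 that fell. Plcg1, phospholipase C gamma 1 of antigen receptor signalling, ran from 20.4 to 35.7 CPM against 39.1 to 72.1 CPM, without overlap, and fell by 1.06 (SE 0.24, adjusted p = 0.0109 in edgeR). Map4k2, a kinase of the germinal center, ran from 14.3 to 43.9 CPM against 47.3 to 90.0 CPM and fell by 1.02 (SE 0.24, adjusted p = 0.0184), also without overlap. Aff3, a nuclear factor of lymphoid cells, fell by 1.16, Pik3c2b, a lipid kinase, by 1.11, and St6gal1, which adds sialic acid to B cell glycoproteins, by 1.07.

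Other genes with the largest falls have varied roles. Cbx7, a polycomb repressor, ran from 5.91 to 28.6 CPM against 21.4 to 33.6 CPM and fell by 1.33 (SE 0.33, adjusted p = 0.0214 in edgeR), the largest fall called. Exosc10, a nuclear RNA-degrading exosome subunit, ran from 7.14 to 26.02 CPM against 28.7 to 67.5 CPM, without overlap, and fell by 1.14 (adjusted p = 0.0177). Arhgef18, a guanine nucleotide exchange factor, ran from 18.1 to 54.4 CPM, against 46.6 CPM or more in sham mice, and fell by 1.11 (SE 0.20, adjusted p = 0.00302). Gimap1, a GTPase needed for lymphocyte survival, fell by 1.05 (adjusted p = 0.0103) and Fam43a by 1.14 (adjusted p = 0.0393). The falls of Kif26a (1.22) and Plekha3 (1.09) were near the threshold, with adjusted p = 0.0457 and 0.0476, and ended with the animal number as a block (0.0630 and 0.106).

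Klf2, a transcription factor of resting lymphocytes and of endothelium under blood flow (chromosome 8, 72319033 to 72321656, plus strand), had tight groups. It ran from 92.8 to 139 CPM after ligation with a median of 107, and from 176 to 202 CPM after sham surgery with a median of 187, without overlap. The fall was 0.73 (SE 0.14, adjusted p = 0.00546 in edgeR). The other 18 tested genes of the glucocorticoid and immediate early list were not called. Of 18 tested endothelial genes 1 fell, beside 1.22% of all tested genes. This was Flt1, a receptor for vascular endothelial growth factor, which ran from 16.4 to 49.97 CPM against 37.3 to 96.8 CPM. It fell by 0.99 (SE 0.24, adjusted p = 0.02 in edgeR, and 0.0538 with the animal number as a block).

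Bile duct cell markers were scarce in both groups. Krt7, Krt19 and Epcam, which mark the duct epithelium, had 7, 43 and 5 counts after ligation and 10, 9 and 0 after sham surgery. Ligated animal 4 held 27 of the 43 Krt19 counts, the library with the most counts of serosal lining genes (below). Krt8, a keratin that hepatocytes share, had 60 against 3 counts, 30 of them in ligated animal 3, and Spp1, osteopontin, had 30 against 95. Cd24a, the only tested gene of the duct list, ran from 278 to 657 CPM against 171 to 283 CPM and rose by 0.86 (SE 0.19, adjusted p = 0.0109 in edgeR). Cd24a is also abundant on red cell precursors and leukocytes.

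Few platelet genes were called. Of 36 tested members 2 rose, 5.56% beside the background of 3.93%, with a median of 0.41 and 35 members above 0. At an unadjusted p under 0.05, 12 were higher and 0 lower. Leaving out 1 library gave 0 (without sham animal 4 or 5) to 7 (without sham animal 6) that rose. The 2 that rose were Tspan33, also a gene of red cell precursors (1.34, SE 0.31, adjusted p = 0.0160 in edgeR), and F13a1, coagulation factor XIII, shared with monocytes (0.80, SE 0.22, adjusted p = 0.0434), whose call was lost without any 1 of 8 libraries. Pf4, platelet factor 4, ran from 300 to 886 CPM against 196 to 857 CPM (0.42, SE 0.25, adjusted p = 0.395). F5, coagulation factor V, which platelets and liver both make, rose by 0.89 (adjusted p = 0.0334 in edgeR, and 0.0650 with the animal number as a block). Its ranges were wide, at 49.97 to 954 and 17.3 to 692 CPM, and split by the number set in both groups. Libraries of animals 1 to 3 had 4 to 16 counts each, and those of animals 4 to 6 had 194 to 699. Vesicle tetraspanins and sorting genes had 0 of 25 called in edgeR and 0 in DESeq2, with 4 higher and 2 lower at an unadjusted p under 0.05 and a median of 0.20.

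Genes of general cell machinery served as a background. In edgeR 0 of 82 cytosolic ribosomal protein genes, 0 of 54 respiratory chain genes, 0 of 31 proteasome genes and 0 of 41 histone genes were called, with medians between -0.10 and 0.32. At an unadjusted p under 0.05 these lists held 3 lower, 2 higher, 0 and 4 higher genes in that order, and DESeq2 called 1 ribosomal gene lower and 2 histone genes higher. The ribosomal protein genes nevertheless held 4.06% to 5.32% of all counts in ligated libraries and 5.35% to 6.61% in sham libraries, without overlap, and 18 of the 82 fell when libraries were scaled by total counts. Lars2, whose gene model held the most counts of all, had a log2 difference of 0.14 (SE 0.10, adjusted p = 0.480) under TMM and of -0.16 under that scaling.

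Some transcripts of tissues other than liver and blood came almost wholly from 1 or a few libraries. The lists below were drawn up after the counts were seen, so they are descriptions with no test. Genes of airway secretory cells were found almost wholly in ligated animal 5, with at most 2 counts of a gene in any other library. Bpifa1, a secreted defence protein of the upper airway, had 547 counts in ligated animal 5 and 0 in the other 11 libraries. Scgb1a1, the club cell secretoglobin, had 166 and 0. Scgb3a1 had 40 and Sftpc, a surfactant protein, 13. The 11 genes of that list held 850 counts, 0.129% of that library, against at most 3 counts in any other. The same animal held 112 of 168 Ltf counts. With no filter on low counts, edgeR called Bpifa1 higher after ligation, although it was detected in 1 animal only.

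Genes of mesothelium, the serosal lining of the body cavities, were highest in ligated animal 4 and varied in both groups. Upk3b had 171 of its 206 ligated counts in that library, Muc16 had 107 of 141 and Lrrn4 57 of 67. The 7 genes held 0.0553% of counts there, 0.0336% in ligated animal 2, 0.0383% in sham animal 1, and 0.00114% to 0.0189% in the other sham libraries except animal 6 (0.000485%).

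Cartilage genes came mostly from 4 sham mice. Col10a1, a collagen of hypertrophic growth plate cartilage, had 29, 16, 26 and 47 counts in sham animals 3 to 6 and 0 in the other 8 libraries. Col2a1, the main cartilage collagen, had 103 counts after sham surgery against 5 after ligation, and Acan, the cartilage proteoglycan, 32 against 3. The 11 cartilage genes held 0.00185% to 0.0212% of counts in sham libraries and 0.000387% to 0.00243% in ligated ones. A bone matrix gene shared with other tissues, Spp1, had 27, 11, 23 and 32 of its 95 sham counts in the same 4 animals.

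Heart muscle genes were lower after ligation in summed counts. Actc1, cardiac actin, had 15 against 94 counts, Tnni3, cardiac troponin I, 4 against 49, and Myoz2 2 against 35. Sham animals 6 and 2 held the highest shares (0.0454% and 0.0441%), while sham animals 4 and 5 held 0.0146% and 0.0118%. The 9 genes held 0.00206% to 0.0173% of counts in ligated libraries, so the groups overlapped. In the wider list of heart and skeletal muscle genes, 0 of 6 tested were called in the main edgeR fit. With no filter on low counts 8 of 33 fell and 1 rose, beside 102 and 336 of all 16098 genes tested. DESeq2 called 3 of 21 lower and 1 higher. The animal number as a block gave 1 of 6 lower, and scaling by total counts 2 of 6.

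**Figure D5:**
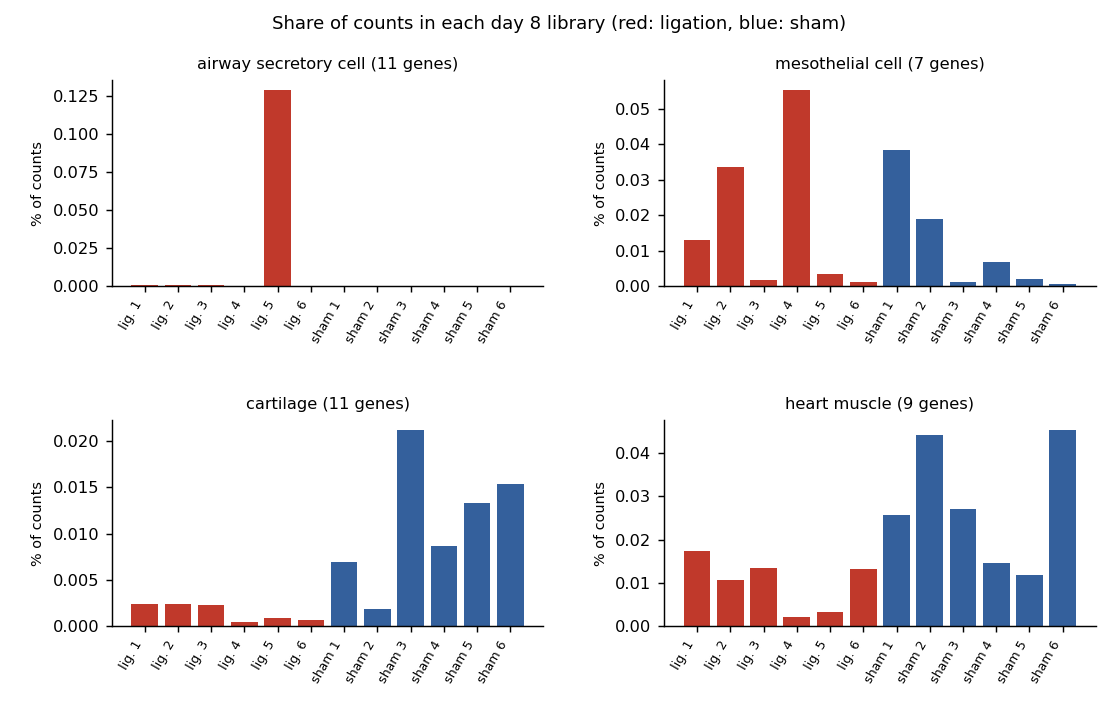
Percent of each day 8 library's counts held by 4 lists drawn up after the counts were seen, 1 bar per library, ligated in red and sham in blue. Airway genes stand almost wholly in ligated animal 5 (0.129%), mesothelial genes peak in ligated animal 4 (0.0553%), and cartilage genes in sham animals 3 to 6.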

How the data were processed

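Vesicle RNA of plasma was sequenced in 24 libraries, of which the 12 of day 8 (6 ligation, 6 sham) were compared. By the submitters' processing notes, the tools were STAR and RSEM, without versions. The notes name the human build hg38, while the deposited table lists mouse Ensembl genes, so the alignment build was not established; 21860 of 21960 identifiers were found in GENCODE M21 (GRCm38), from which gene coordinates were taken. The deposited values are expected counts per gene, all whole numbers, so the authors' estimates were taken as rounded before deposit. No source used here says how reads were divided between near-identical or overlapping genes or between strands.

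Genes were kept by edgeR's filterByExpr (minimum count 10, minimum total 15), scaled by TMM and fitted in edgeR 4.0.16 under R 4.3.3 (quasi-likelihood, ligation plus the number set 1 to 3 or 4 to 6), with Benjamini-Hochberg adjustment over 3867 genes and a threshold of 0.05. The script was tested on simulated counts. DESeq2 1.42.0, other scalings, filters, covariates and sample sets were run as alternatives; scaling by total counts was added after the data were seen. The 33 gene lists and the comparison were chosen with earlier results of these data known. Named genes were the 12 called in each direction with the largest change (mean CPM of 5 or more), up to 3 called per list by smallest p, and 16 preset genes; genes outside this rule are stated as chosen later or are further called or counted members of a list. Predicted genes (2 higher, 1 lower) are not named. Some red cell genes, among them 1 that the rule names, are counted in their list but not reported here by name.

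Titles number the animals 1 to 6 in each group. Deviations from group means correlated between same-numbered libraries by 0.156 to 0.331, all 6 over 0.1. After the mean of each number set was also removed, the correlations were -0.198 to 0.0289, with 0 over 0.1. These data thus show no pairing of same-numbered libraries beyond the number set, and no label states one. The animal number was used as a block only as an alternative. Libraries of 1 group differed beyond sampling noise (chi-square per degree of freedom at least 2.00), so none was merged. Pairs with ligated animal 3 gave 45.1 to 71.5, and all other pairs within either group gave 7.91 or less. Intervals (exact Clopper-Pearson or exact ratio, 95%) and floors (3 counts per group) reflect counting error alone, since reads carry no molecular identifiers.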

Additional observations from a re-analysis of the deposited data

Results flagged for a closer look

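For this check the values were put on the log2 scale, although they are printed below as CPM or percent. In groups of 6, a library whose gap to the nearest other exceeded 0.625 of the group's range on that scale was picked out. This was so for 15 of 172 group values, and chance gives about 1 in 20. Ligated animal 3 was the outlying library for Apob (487 CPM), Trf (1720 CPM) and Chd9 (1090 CPM) on the high side and for Ccr2 (16.1 CPM) on the low side. Its hepatocyte genes held 0.861% of counts over 6 lists and 0.415% over the carriers, both the highest of the ligated group, and its respiratory chain (0.247%) and proteasome genes (0.107%) the lowest. Whether its low Lars2 share and TMM factor have a part in these values was not tested.

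Sham animals stood out for Hpx (3.59 CPM in animal 2, the others at 0), Apob (3.74 CPM in animal 6, the others at 0), Arhgef18 (46.6 CPM in animal 2) and Ikzf3 (57.4 CPM in animal 2). The metabolic hepatocyte list held 0.144% of counts in sham animal 1, against at most 0.0712% in the other sham libraries. Ligated animal 2 had the lowest Pax5 (12.1 CPM) and ligated animal 1 had Hmox1 at 0 CPM.

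In the libraries of day 15, which the comparison did not use, the lowest hepatocyte share after ligation was 0.744% of counts, against 0.141% to 0.297% in sham libraries of that day.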

How the results depend on the processing

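The counts of 152 higher and 47 lower genes moved by more than 1.5 times under several settings. They were 80 and 266 with scaling by total counts (a setting added after the data were seen), 336 and 102 with no filter on low counts (16098 genes tested), 262 and 74 in DESeq2, and 74 and 10 without the number set. With the animal number as a replicate block, 128 rose and 28 fell, of which 122 and 26 were among the main calls. The correlations showed no such pairing beyond the number set. With all 24 libraries in the fit 167 rose and 25 fell, with animals 1 to 3 alone 72 and 4, and with animals 4 to 6 alone 24 and 7; fewer samples and other numbers of tested genes go with the last pair. Leaving out 1 library gave 89 to 200 higher and 14 to 53 lower genes. The number of lower genes fell by more than 1.5 times without ligated animal 2 (31), 4 (24) or 5 (25) or sham animal 3 (21), 4 (16) or 5 (14), and the number of higher genes without sham animal 4 (89) or 5 (96). DESeq2-type size factors, upper quartile factors, removal of Lars2 and globin genes, and a minimum count of 20 kept both within 1.5 times (114 to 155 and 46 to 61). The causes of these moves were not tested. The log2 ratio of mean hepatocyte shares, 1.04, ranged from 0.73 to 1.44 and moved by less than 1 SD in each alternative run. Over the alternatives of the 52 tested named genes, 956 values kept direction and call, 223 lost the call, 3 gained it, and 1 changed sign: Lars2, at -0.16 with scaling by total counts. Calls lost with the block are given beside the genes; it ended 9 calls of the genes named by the rule, and of the further list members Selenop, Fcgr3 and H2-Aa. Of the genes named by the rule that fell, Aff3, Arhgef18, Plcg1, Gimap1 and Klf2 kept their call without any 1 library where tested, and the others lost it without 1 (Exosc10, Pik3c2b, Map4k2, Ralgps2) to 9 (Kif26a) of the libraries. Of those that rose, C3, F5, Acsl1, Tspan33, F13a1, Hmox1 and Txn1 lost it without 2 (Tspan33) to 10 (Txn1) libraries, and the others kept it where tested. Of further members named, Ank1, Fech, Cp, Fcgr3, Selenop, Bank1 and H2-Aa lost it without 1 (Ank1) to 10 (H2-Aa) libraries. Genes under about 10 counts per library could not be tested, and a count of 0 over the shallowest library, sham animal 1, allows up to 29.5 CPM.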

Other observations

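A few genes of other tissues ran against the groups of genes described above and were picked after their counts were seen. Myh7, the slow muscle myosin, had 36 counts after ligation and 4 after sham surgery, whereas the heart list as a whole was lower. Fabp2, the fatty acid binding protein of the gut lining, had 22 counts over 5 ligated libraries and 0 in sham mice, and Vil1, another gut gene, had 9 against 2. Pde2a had 48 counts in sham animal 5 and 0 elsewhere, and Galnt2 had 50 of its 53 counts in sham animal 6.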
